A study of Mus musculus with 2 samples.

Results

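Proteasome genes were examined in RNA of adult mouse heart. The set held every protein-coding gene whose GENCODE M21 symbol starts with Psma, Psmb, Psmc, Psmd, Psme or Psmf, and each was matched by gene identifier to the gene tables of both libraries. The rule found 46 genes among 43346 gene identifiers. By role they were 7 genes of the α ring, 4 noncatalytic and 3 constitutive catalytic genes of the β ring, 3 immunoproteasome catalytic genes, 6 ATPases and 3 other subunits of the base, 8 lid subunits, 3 base chaperones, 3 PA28 α and β genes, 2 other activators and 1 inhibitor. Psma8, a testis α subunit, and Psmb11, a thymus β subunit, made up the rest together with Psmc3ip. Psmc3ip matched by its symbol alone, since it encodes a meiotic recombination factor and not a proteasome subunit.

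The proteasome is the protease that degrades proteins tagged with ubiquitin. Its 20S core is a barrel of stacked α and β rings, in which 3 of the β subunits cut peptide bonds, and the 19S particle on its ends binds, unfolds and feeds in the substrate through a ring of ATPases. In immune cells, and in other cells exposed to interferon γ, the catalytic subunits are replaced by immunoproteasome counterparts that alter the peptides offered on MHC class I. In heart muscle the proteasome is known for the turnover of contractile proteins and of damaged proteins.

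The series holds 1 group of 2 libraries of poly(A)-selected RNA above 200 nucleotides, sequenced in stranded pairs of 76 nucleotides, from hearts of adult C57BL/6J mice aged 8 weeks with no treatment named. The labels call the libraries biological replicates of pooled male and female animals, name separate biosamples, and give them 1 donor record. Replicate 2 held 62912053 estimated counts and replicate 1 held 57464573. Sex-linked transcripts went against the labelled pooling: Xist was found mostly in replicate 1 (13 counts in replicate 2 against 13725 in replicate 1), whereas 4 Y-linked genes had 458 to 922 counts each in replicate 2 but 0 in replicate 1. Levels are given as TPM, which scales each library to a fixed total and corrects for transcript length. All 8 cardiomyocyte markers exceeded 1 TPM in both libraries, and none was called different at a fold limit of 2. Their count ratios, replicate 2 over replicate 1, still ran from 0.597 for Ryr2 to 1.90 for Tnni3. By TPM, Tnni3 had 11029.9 in replicate 2 and 4631.4 in replicate 1. Markers of other tissues differed: 7 lung markers summed to 2275.5 TPM in replicate 2 and 0.65 TPM in replicate 1, and 7 erythroid markers held 9.67% of gene TPM in replicate 2 and 0.772% in replicate 1. The 17 immune markers summed to 614.6 TPM in replicate 2 and 292.1 TPM in replicate 1, and the 13 mitochondrial protein genes held 30.9% of gene TPM in replicate 2 and 46.8% in replicate 1. In bulk tissue, fewer cells of a type and less RNA per cell cannot be told apart. The design holds no contrast between conditions, so each difference given here compares these 2 libraries only.

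Nearly the whole set was present. TPM was at least 1 in both libraries for 43 of the 46 genes, against 49.7% of 21474 protein-coding genes. The median gene of the set stood at percentile 91.2 of protein-coding genes by mean TPM. All 46 genes together held 0.190% of gene TPM in replicate 2 and 0.179% in replicate 1. The order of the 45 genes with counts was similar in the libraries, with a Spearman rho of 0.966 across genes, which share library and length and are not independent.

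**Figure D1:**
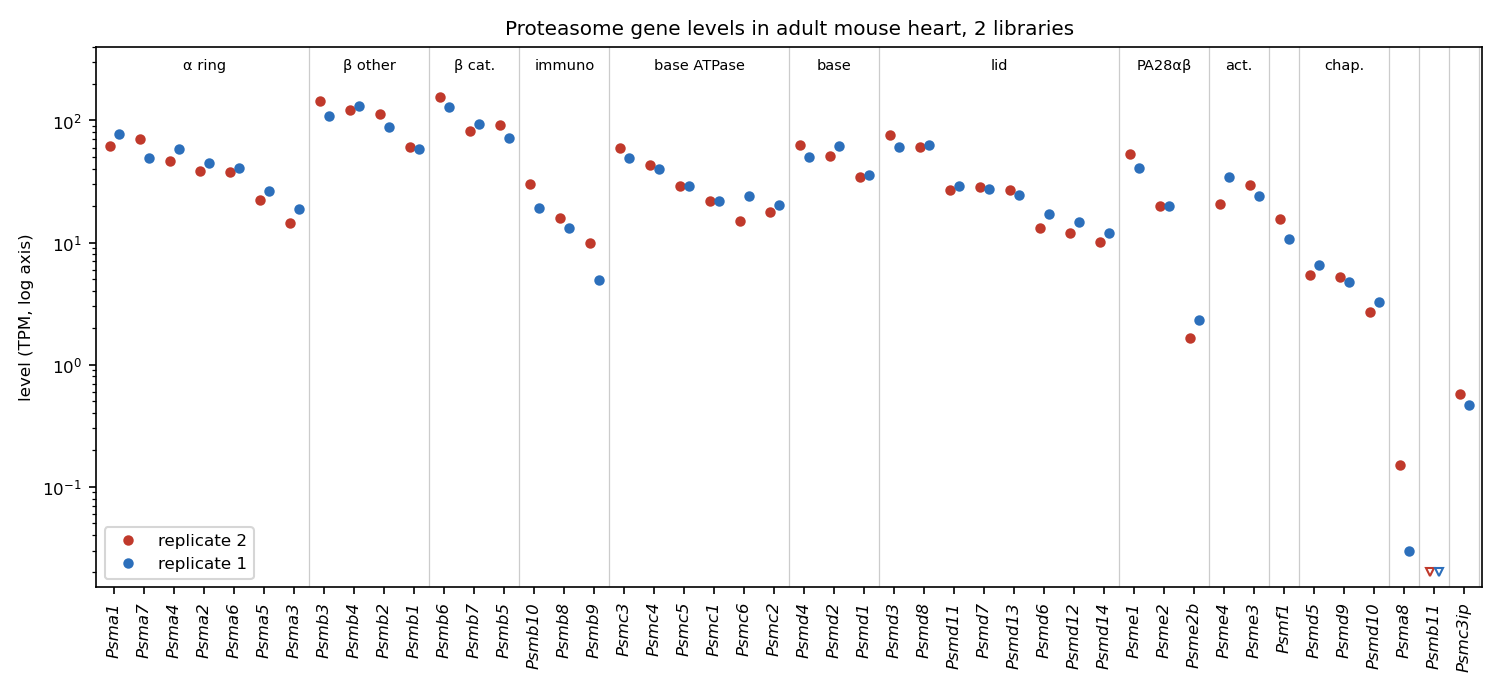
Level of each of the 46 genes in TPM on a log axis, grouped by role (cat., catalytic; act., other activators; chap., base chaperones) and then by mean, with replicate 2 in red and replicate 1 in blue; open triangles at the lower edge mark a gene with 0 counts. The 3 highest genes in each library are β genes, the immunoproteasome genes stand below their constitutive counterparts, and Psma8, Psmb11 and Psmc3ip lie under 1 TPM.

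The 3 genes under 1 TPM have textbook roles outside the heart. Psmb11, the β subunit of cortical thymus epithelium, had 0 counts in both libraries, which allows a level of up to 0.0113 TPM in replicate 2 and 0.0119 TPM in replicate 1 (a floor of 3 counts). The gene lies 3410 nucleotides from Psmb5 on chromosome 14 (GRCm38), and Psmb5, a constitutive catalytic gene, had 92.5 TPM in replicate 2 and 72.1 TPM in replicate 1. Neighbouring genes of the same family thus stood far apart, with Psmb5 at rank 6 and Psmb11 at rank 46 of the set by mean. Foxn1, which defines thymus epithelium, was also at 0 in both libraries, and the 6 thymus markers summed to 1.04 TPM in replicate 2 and 0.71 TPM in replicate 1. Psma8 had 0.15 TPM from 15 counts in replicate 2, against 0.030 TPM from 3 counts in replicate 1. Its counts were above the floor only in replicate 2, and the ratio of 4.19 had a 95% counting interval of 1.18 to 22.6. The 5 testis markers summed to 3.15 TPM in replicate 2 and 2.78 TPM in replicate 1, most of it from Prm1 (2.52 TPM in replicate 2, 1.82 TPM in replicate 1). Psmc3ip had 0.57 TPM in replicate 2 and 0.47 TPM in replicate 1.

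The 20S core genes led the set by median level, and within the core the β genes exceeded the α genes in sum. The 14 constitutive core genes summed to 1065.4 TPM in replicate 2 and 997.3 TPM in replicate 1 (1031 ± 48.1, SD, n = 2). The 4 noncatalytic β genes summed to 442.2 TPM in replicate 2 and 387.3 TPM in replicate 1, and the 3 catalytic ones to 331.9 TPM in replicate 2 and 294.3 TPM in replicate 1. The 7 α genes summed to 291.4 TPM in replicate 2 and 315.8 TPM in replicate 1, less than the 4 noncatalytic β genes in each library. In an assembled core all 14 proteins are present in equal number. Psmb6, the β1 subunit with caspase-like activity, led in replicate 2 with 156.8 TPM and had 128.3 TPM in replicate 1. Psmb4, the noncatalytic β7 subunit, had 122.7 TPM in replicate 2 and led in replicate 1 with 130.5 TPM. Its level includes a retained-intron form, Psmb4-202, with 42.97 TPM in replicate 2 and 71.3 TPM in replicate 1. The protein-coding Psmb4-201 had 75.7 TPM in replicate 2 and 55.6 TPM in replicate 1. Psmb3, the β3 subunit, had 144.5 TPM in replicate 2 and 109.6 TPM in replicate 1. These 3 genes held the top 3 ranks of the set in both libraries, in a different order, and the means of neighbours in that order (142.5 ± 20.2, 127.0 ± 24.7 and 126.6 ± 5.53 TPM for Psmb6, Psmb3 and Psmb4, SD, n = 2 each) differed by less than 1 SD of Psmb6 or Psmb3. Psmb2, the β4 subunit, had 114.0 TPM in replicate 2 and 88.3 TPM in replicate 1. Psmb1, the β6 subunit, was the lowest β gene with 61.1 TPM in replicate 2 and 58.9 TPM in replicate 1.

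Within the α ring, which gates the entrance of the barrel, the highest level was 4.95 times the lowest in replicate 2 and 4.07 times in replicate 1. Psma1, the α6 subunit, had the highest mean with 61.4 TPM in replicate 2 and 77.01 TPM in replicate 1. Psma7, the α4 subunit, had 71.2 TPM in replicate 2 and 49.1 TPM in replicate 1, so the leading gene differed between the libraries. Psma4, Psma2 and Psma6, the α3, α2 and α1 subunits, had mean levels of 52.3, 41.8 and 39.2 TPM, and Psma5, the α5 subunit, had 24.4 TPM. Psma3, the α7 subunit, was the lowest gene of the whole core with 14.4 TPM in replicate 2 and 18.9 TPM in replicate 1.

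Psma3 shares sequence with a processed copy elsewhere in the genome. Gm13835, annotated as a processed pseudogene at chr6:31141979-31142663 on the minus strand (GRCm38), is 685 nucleotides long. Its sequence equalled the 768-nucleotide coding sequence of Psma3 (transcript Psma3-202, chr12:70974621-70996347, plus strand) with exon 2 of 83 nucleotides left out and 0 other differences, and it lies whole inside transcript Psma3-204. The start of the coding sequence in Psma3-202 and the start of Gm13835 are shown because exon 2 is their one difference. Both are taken from GENCODE M21 transcripts, 5′ to 3′, and capitals mark exon 2, which Gm13835 lacks.
Psma3: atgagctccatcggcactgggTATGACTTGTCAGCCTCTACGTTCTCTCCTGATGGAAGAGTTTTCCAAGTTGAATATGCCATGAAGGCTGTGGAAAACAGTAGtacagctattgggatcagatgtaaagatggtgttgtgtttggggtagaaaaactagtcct
Gm13835: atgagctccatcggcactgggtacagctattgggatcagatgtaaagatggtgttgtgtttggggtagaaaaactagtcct
The deposited estimates gave Gm13835 34.07 TPM in replicate 2 and 33.79 TPM in replicate 1, more than Psma3 itself in both libraries. Psma3 was assigned 885.1 estimated counts in replicate 2 and 1083 in replicate 1. Gm13835 was assigned 1093 in replicate 2 and 1013 in replicate 1. The posterior standard deviation of the count, a measure of how well reads fix the division, was 34.7 in replicate 2 and 39.0 in replicate 1 for Psma3 and the same for Gm13835. It was 0 in both libraries for 35 of the 46 genes, and exceeded 1% of the count for only 2 of them. When both genes were added, a choice made once the data had been seen, the level was 48.4 TPM in replicate 2 and 52.7 TPM in replicate 1 (50.6 ± 3.02, SD, n = 2), rank 3 among the 7 α genes in each library, and the α ring then summed to 325.5 TPM in replicate 2 and 349.6 TPM in replicate 1. The position of Psma3 at the bottom of the core thus changed with the division of shared reads. The sum keeps the short length of Gm13835 for its counts, whereas Psma3 had effective lengths of 937.5 nucleotides in replicate 2 and 917.1 in replicate 1. On the length of Psma3 the same counts give fewer TPM, so rank 3 depends on the length used as well. Among its own transcripts the retained-intron form Psma3-203 held 44.8% of the gene's TPM in replicate 2 and 39.6% in replicate 1, and forms that are not protein-coding held 78.3% in replicate 2 and 74.3% in replicate 1. These shares leave out the counts assigned to Gm13835 and depend on that division too, since Psma3-204 is protein-coding.

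**Figure D2:**
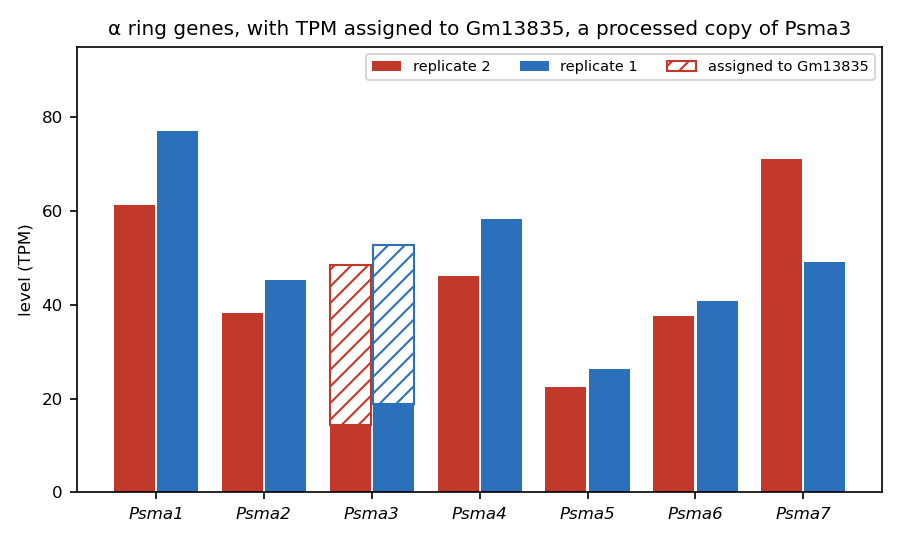
TPM of the 7 α ring genes, with replicate 2 in red on the left and replicate 1 in blue on the right of each pair; hatched bars add the TPM assigned to Gm13835 on top of Psma3. Psma3 alone is the lowest gene with 14.4 TPM in replicate 2 and 18.9 TPM in replicate 1, and with Gm13835 it reaches 48.4 TPM in replicate 2 and 52.7 TPM in replicate 1.

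Other copies were fewer in counts. A search of M21 transcripts at 85% identity over at least 60% of the shorter sequence found 22 pseudogene copies of 14 genes of the set, of which 9 had any counts. Outside Gm13835 these pseudogenes summed to 92.2 counts in replicate 2 and 136.0 in replicate 1. A730017L22Rik, a processed transcript that matched Psmd11 at 90.6% identity over 100% of the shorter sequence, had 789 counts in replicate 2 and 538 in replicate 1, with a posterior standard deviation of 0 in both libraries. Psme2b, a protein-coding near copy of Psme2 with 99.4% identity, had 69.2 counts in replicate 2 and 91.9 in replicate 1, while Psme2 had 925.8 in replicate 2 and 813.1 in replicate 1, and the division between the copies is uncertain. Exons of 8 genes of the set overlap another gene with at least 20 counts over both libraries, 7 on the other strand (Psmb7, Psmb9, Psmc3, Psmc3ip, Psmd1, Psmd13 and Psme1) and Psme2b on its own strand, over at most 21.2% of the exons. The sources used here do not give whether counting used strand.

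The 19S particle stood below the core. Its 17 genes under the symbol rule summed to 589.6 TPM in replicate 2 and 580.8 TPM in replicate 1 (585.2 ± 6.21, SD, n = 2). The sum leaves out Adrm1 and Sem1, subunits that the rule misses and that are given below. The median core gene was 2.34 times the median 19S gene in replicate 2 and 2.25 times in replicate 1, and 7 of the 14 core genes had a mean above that of the highest 19S gene. The 6 ATPases of the base, which form the unfolding ring, ranged in mean from 18.98 TPM for Psmc2 to 54.1 TPM for Psmc3. Psmc3 had 59.2 TPM in replicate 2 and 49.1 TPM in replicate 1, and Psmc4 had 43.1 TPM in replicate 2 and 39.7 TPM in replicate 1. Psmc5 (28.9 TPM in replicate 2, 29.2 TPM in replicate 1) and Psmc1 (21.9 TPM in replicate 2, 21.8 TPM in replicate 1) differed little between the libraries. Psmc6 had 15.03 TPM in replicate 2 and 23.9 TPM in replicate 1, the widest ratio of the ring. Of the other base subunits, Psmd2, a scaffold that docks ubiquitin-like proteins, had 51.4 TPM in replicate 2 and 62.3 TPM in replicate 1. Psmd4, a ubiquitin receptor, had 63.2 TPM in replicate 2 and 50.5 TPM in replicate 1. Psmd1, the other large scaffold, had 34.5 TPM in replicate 2 and 35.6 TPM in replicate 1, so by TPM the 3 genes did not share a direction between the libraries.

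The 8 lid genes spanned a range of 7.49 times in replicate 2 and 5.19 times in replicate 1. Psmd3, a structural lid subunit, had the highest mean, with 76.2 TPM in replicate 2 and 60.7 TPM in replicate 1. Psmd8, another structural lid subunit, had 60.7 TPM in replicate 2 and 62.5 TPM in replicate 1, so it led the lid in replicate 1. Psmd14, the deubiquitinase that removes the ubiquitin chain, was the lowest 19S gene with 10.2 TPM in replicate 2 and 12.1 TPM in replicate 1. Psmd7, its partner in the catalytic dimer, had 28.4 TPM in replicate 2 and 27.7 TPM in replicate 1. The catalytic lid subunit thus stood below its partner in each library. Psmd11, Psmd13, Psmd6 and Psmd12, structural lid subunits, had means of 28.1, 25.8, 15.1 and 13.4 TPM. The 3 base chaperones, which assist assembly and leave the finished particle, were lower still at 13.3 TPM in sum in replicate 2 and 14.6 TPM in replicate 1. Psmd5 had a mean of 5.96 TPM, Psmd9 of 4.995 TPM and Psmd10 (gankyrin) of 2.99 TPM.

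Activators open the gate of the core in place of the 19S particle. Psme1, the PA28 α subunit, had 52.8 TPM in replicate 2 and 40.8 TPM in replicate 1. Psme2, its β partner in the same ring, had 20.02 TPM in replicate 2 and 19.8 TPM in replicate 1, so α exceeded β 2.64 times in replicate 2 and 2.06 times in replicate 1. Psme2b had 1.64 TPM in replicate 2 and 2.33 TPM in replicate 1. Psme3, the nuclear PA28 γ, had 29.4 TPM in replicate 2 and 24.2 TPM in replicate 1. Psme4, which encodes the large activator PA200, had 20.7 TPM in replicate 2 and 34.2 TPM in replicate 1, the opposite order. Psmf1, a proteasome inhibitor, had 15.7 TPM in replicate 2 and 10.7 TPM in replicate 1.

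The immunoproteasome catalytic genes were lower than their constitutive counterparts in every pair and in both libraries. They summed to 55.9 TPM in replicate 2 and 37.5 TPM in replicate 1, and the 3 constitutive genes summed to 331.9 TPM in replicate 2 and 294.3 TPM in replicate 1. The log2 ratio of the sums was −2.57 in replicate 2 and −2.97 in replicate 1 (−2.77 ± 0.29, SD, n = 2). Immunoproteasome genes held 14.4% of the catalytic TPM in replicate 2 and 11.3% in replicate 1. The order of the 3 pairs was the same in both libraries, and its nearest neighbours were Psmb10 at −2.28 and Psmb8 at −2.46 on the log2 scale in replicate 1. Psmb9 (β1i) had 9.83 TPM in replicate 2 and 4.98 TPM in replicate 1, against 156.8 TPM in replicate 2 and 128.3 TPM in replicate 1 for Psmb6 (β1), a mean log2 ratio of −4.34 ± 0.49 (SD, n = 2). This was the most uneven pair, with Psmb9 at 5.90% of it in replicate 2 and 3.74% in replicate 1. Psmb10 (β2i, trypsin-like) had 30.2 TPM in replicate 2 and 19.4 TPM in replicate 1, against 82.6 TPM in replicate 2 and 93.9 TPM in replicate 1 for Psmb7 (β2), a mean log2 ratio of −1.87 ± 0.58 (SD, n = 2). Psmb10 held 26.8% of its pair in replicate 2 and 17.1% in replicate 1, the highest share of the 3. Psmb8 (β5i, chymotrypsin-like) had 15.9 TPM in replicate 2 and 13.1 TPM in replicate 1, against 92.5 TPM in replicate 2 and 72.1 TPM in replicate 1 for Psmb5 (β5), a mean log2 ratio of −2.50 ± 0.058 (SD, n = 2). Its share of 14.7% in replicate 2 and 15.4% in replicate 1 was the steadiest. No immunoproteasome value reached any constitutive value. With 2 libraries the smallest two-sided p that an exact sign test could give is 0.5.

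**Figure D3:**
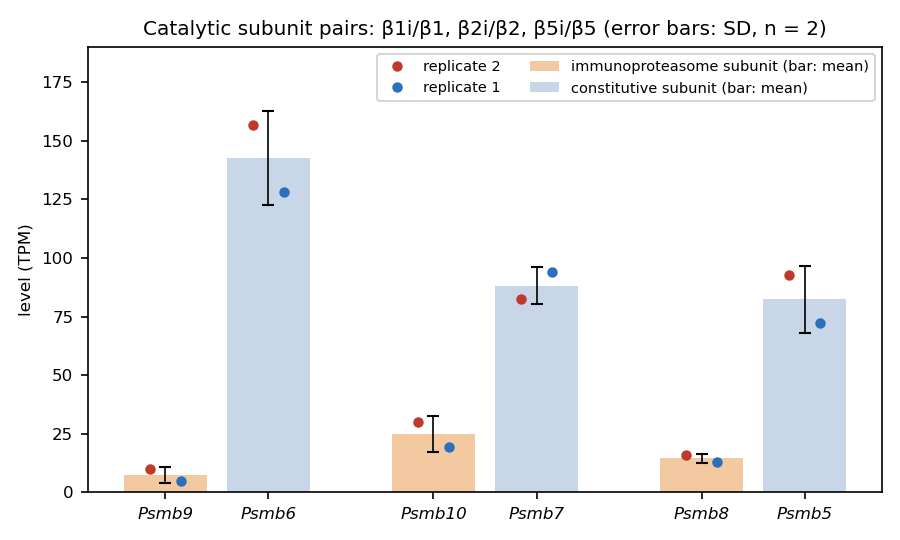
TPM of each immunoproteasome catalytic gene (left bar of a pair) beside its constitutive counterpart (right bar); bars are means, error bars SD of 2 libraries, red points replicate 2 and blue points replicate 1. All immunoproteasome points lie at or below 30.2 TPM, and all constitutive points at or above 72.1 TPM.

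Windows around the RefSeq starts of these genes follow, except for Psmb7, which had none. They are shown because the immunoproteasome genes are known as interferon targets and the constitutive ones as targets of the transcription factors Nfe2l1 and Nfe2l2. The windows hold 250 bases before the RefSeq start and 50 from it, 5′ to 3′ on the gene's strand (RefSeq, GRCm38.p6). Capitals mark matches on either strand to GAAA, any 2 bases and GAAA (core of the interferon-stimulated response element), TTCNNNGAA (core of the gamma-activated site) or TGACNNNGC (core of the antioxidant response element), which did not overlap in these windows. Psmb9 is at chr17:34187281-34187580 (minus strand), Psmb8 at chr17:34197945-34198244 (plus strand), Psmb10 at chr8:105938343-105938642 (minus strand), Psmb6 at chr11:70525107-70525406 (plus strand) and Psmb5 at chr14:54617946-54618245 (minus strand).
Psmb9: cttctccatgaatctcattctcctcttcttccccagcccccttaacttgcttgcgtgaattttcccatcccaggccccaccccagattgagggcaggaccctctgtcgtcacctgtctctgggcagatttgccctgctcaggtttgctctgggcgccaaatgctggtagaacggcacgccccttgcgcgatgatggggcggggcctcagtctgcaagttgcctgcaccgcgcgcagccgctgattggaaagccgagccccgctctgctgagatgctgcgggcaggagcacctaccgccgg
Psmb8: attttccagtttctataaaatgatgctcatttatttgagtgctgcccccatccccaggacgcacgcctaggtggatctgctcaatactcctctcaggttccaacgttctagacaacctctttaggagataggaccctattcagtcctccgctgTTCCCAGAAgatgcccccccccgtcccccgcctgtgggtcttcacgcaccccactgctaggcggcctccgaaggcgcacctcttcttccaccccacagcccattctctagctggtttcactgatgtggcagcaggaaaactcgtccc
Psmb10: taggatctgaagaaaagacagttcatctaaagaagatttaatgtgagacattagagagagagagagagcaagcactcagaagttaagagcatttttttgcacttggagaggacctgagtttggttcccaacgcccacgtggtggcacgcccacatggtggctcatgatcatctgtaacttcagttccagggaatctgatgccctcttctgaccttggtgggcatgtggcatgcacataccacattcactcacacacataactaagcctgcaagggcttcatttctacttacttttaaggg
Psmb6: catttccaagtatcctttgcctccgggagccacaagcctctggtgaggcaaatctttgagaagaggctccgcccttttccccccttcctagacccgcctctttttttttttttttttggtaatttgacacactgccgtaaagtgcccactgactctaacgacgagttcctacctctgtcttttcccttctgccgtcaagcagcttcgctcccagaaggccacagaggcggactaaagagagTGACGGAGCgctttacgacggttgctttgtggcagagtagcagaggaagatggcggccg
Psmb5: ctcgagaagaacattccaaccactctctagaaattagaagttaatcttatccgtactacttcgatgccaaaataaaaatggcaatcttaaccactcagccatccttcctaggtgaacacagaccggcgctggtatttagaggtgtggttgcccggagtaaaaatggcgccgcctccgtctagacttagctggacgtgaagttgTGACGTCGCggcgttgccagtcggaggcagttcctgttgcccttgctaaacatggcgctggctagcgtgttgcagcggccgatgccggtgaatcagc
Psmb6 and Psmb5 each held 1 match to TGACNNNGC, 9 and 47 bases before the start, and Psmb8 held 1 match to TTCNNNGAA 97 bases before it. Psmb9 and Psmb10 held none of the 3 motifs in these windows. The windows of Psmb9 and Psmb8 lie wholly inside the M21 gene bodies, which begin further upstream at chr17:34187764 and chr17:34197721. Sequence before those M21 starts was not searched, so a motif there would be missed. Over the 42 windows of 39 genes of the set found in the table, TGACNNNGC was in 14.3%, against 12.4% of all 32851 windows. TTCNNNGAA was in 4.76%, against 8.30%, and the interferon-stimulated response element core in 9.52%, against 3.44%, in Psmb3, Psmd4, Psmd9 and Psme1. A match is a run of letters, not a binding site. Of the 5 listed regulators of proteasome genes, Nfe2l1 was highest, with 212.6 TPM in replicate 2 and 184.4 TPM in replicate 1. Nfe2l2 had 19.3 TPM in replicate 2 and 18.3 TPM in replicate 1. None of the 5 was called different between the libraries, against 8.21% of all tested genes called higher and 3.57% lower. In a list this short, 0 calls say little.

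No gene of the set with enough counts to be tested differed 2-fold between the libraries. Counts were scaled by TMM and compared with an exact binomial test, and a gene was called at a Benjamini-Hochberg adjusted p below 0.05 over all genes and a fold of at least 2. Of 44 genes with at least 20 counts, 0 were called higher in replicate 2 (8.21% of all tested genes) and 0 lower (3.57%), while 39 had an unadjusted p below 0.05 (69.9% of all tested genes). Without the fold limit the same test called 12 higher (32.9% of all) and 25 lower (34.9% of all), and with GC centring as well it called 8 higher (27.7%) and 19 lower (29.5%). At the fold of 2, no gene of the set was called with DESeq2 size factors (8.41% of all higher, 3.38% lower), total counts (9.92%, 2.57%), GC centring (7.19%, 2.15%), at least 100 counts (5.05%, 1.93%) or the TPM ratio alone (12.2%, 3.13%). With no filter on low counts 1 was called higher, Psma8 (7.14% of all), and 0 lower (3.54%). Over the 44 genes the log2 ratio, replicate 2 over replicate 1, had a median of −0.15, and over all 16145 tested genes the median was −0.01. Scaling by TPM instead moved the median of all genes to 0.18 and that of the set to −0.0046, and the set stayed 0.18 below all genes, compared with 0.14 below under TMM. Of the 44 genes, 29 kept the sign of their ratio under DESeq2 scaling, total counts, TPM and centring by GC content, and 15 changed it under at least 1 of these. TPM rescaled over nuclear protein-coding genes was not among these settings. Under it only Psmb9 and Psmb10 were higher in replicate 2, among genes of the set with at least 1 TPM in both libraries.

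Psmb9 had the highest ratio of the set, with 756 counts in replicate 2 and 356 in replicate 1, or 11.7 CPM (TMM-scaled counts on a common library size) in replicate 2 and 6.58 CPM in replicate 1. It was 1.78-fold higher in replicate 2 (95% counting interval 1.57 to 2.02, exact binomial adjusted p = 2.28e-19), and it was the only gene of the set called higher at a fold of 1.5, before (15.1% of all) and after (11.7% of all) centring by GC content. Psmb10 had 32.9 CPM in replicate 2 and 23.8 CPM in replicate 1, a ratio of 1.38 (1.29 to 1.48). Psmb8 had 13.8 CPM in replicate 2 and 12.4 CPM in replicate 1, a ratio of 1.11 (1.01 to 1.23) with an exact binomial adjusted p of 0.0526. Each of the 3 immunoproteasome genes was thus higher in replicate 2 under TMM, DESeq2, total-count, TPM and GC-centred scaling, Psmb8 without passing the test. With TPM rescaled over nuclear protein-coding genes (factors of 1.97 in replicate 2 and 2.96 in replicate 1), Psmb8 was lower in replicate 2. Psmb9 and Psmb10 stayed higher in replicate 2 under that rescaling, Psmb10 narrowly. Psme1 had a ratio of 1.28 (1.21 to 1.36) and Psma7 of 1.31 (1.24 to 1.38). Both Psme1 and Psma7 were lower in replicate 2 after the rescaling.

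At the other end, Psme4 had 8347 counts in replicate 2 and 13011 in replicate 1, or 129.2 CPM in replicate 2 and 240.5 CPM in replicate 1. It was 1.86-fold lower in replicate 2 (1.81 to 1.91). Psmc6 had 20.9 CPM in replicate 2 and 37.5 CPM in replicate 1, 1.80-fold lower (1.68 to 1.92). With Psme2b these were the 3 genes called lower at a fold of 1.5 (12.2% of all), and after centring by GC content Psme2b alone was (5.13% of all). Of the 7 α ring genes, 6 were called lower without the fold limit (34.9% of all) and Psma7 higher (32.9% of all), with a median log2 ratio of −0.40, and Psma2 alone changed sign, with GC centring. After that centring the median was −0.09, with 5 below 0 and 2 above. Of the 8 lid genes, 7 lay below 0 before and after GC centring, with a median of −0.25 before and −0.13 after. The gene above 0 was Psmd3 before and Psmd11 after, and Psmd13 and Psmd7 lay above 0 by TPM.

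The ratios of the set followed GC content. Across its 44 tested genes the log2 ratio had a Pearson r of 0.767 with the GC content of the longest transcript, and across 16048 tested genes r was 0.470. These are correlations across genes of the same 2 libraries. Psmc6 had the lowest GC content of the set at 37.0% and nearly the lowest ratio, while Psma7 had the highest GC content at 57.4%. Centring the ratios within 20 bins of GC content brought the set's median to −0.07, with all genes at 0, and its median absolute log2 ratio to 0.16, against 0.28 uncentred. Genes within an immunoproteasome pair differ in GC content too. The log2 ratio of immunoproteasome over constitutive gene was higher in replicate 2 by 0.69 for Psmb9 over Psmb6 and by 0.83 for Psmb10 over Psmb7, and for Psmb8 over Psmb5 it differed by −0.08. Psmb10 and Psmb7 stand far apart in GC content at 56.5% and 40.8%. After centring, chosen for these pairs after seeing the data, the differences were 0.54, 0.21 and 0.21, so that the Psmb8 pair changed sign.

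**Figure D4:**
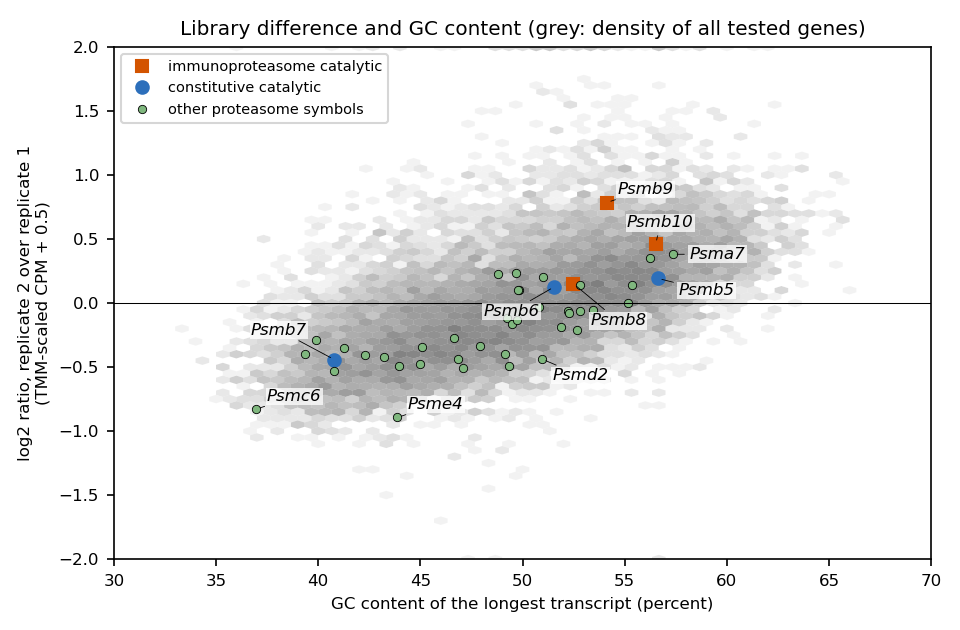
Log2 ratio of replicate 2 over replicate 1 (TMM-scaled CPM + 0.5) against GC content of the longest transcript in percent; grey shading is the density of all tested genes on a log scale, with ratios beyond 2 or −2 drawn at the edge, and symbols are the 44 tested genes of the set. The set runs upward from Psmc6 at 37.0% and −0.83 to Psma7 at 57.4% and 0.38, and Psmb9 stands highest at 0.79.

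Part of the immune markers and most markers of 3 other cell or tissue types were called higher in replicate 2, where Psmb9 and Psmb10 were higher too. Of 17 immune markers 9 were called higher in replicate 2 (8.21% of all tested genes) and 0 lower (3.57%), with a median log2 ratio of 0.93. After GC centring 9 were called higher (7.19% of all) with a median of 0.99, Ptprc and H2-Aa in place of Cd74 and H2-Ab1. None of the 17 was at 0 in both libraries, and 14 had at least 1 TPM in both libraries. Ptprc, the pan-leukocyte marker CD45, had 4.24 TPM in replicate 2 and 2.47 TPM in replicate 1, and Cd3e of T cells had 0.77 TPM in replicate 2 and 0.070 TPM in replicate 1. The other genes called before centring were Cd79a, Cd79b, Cd8a, Ly6d and Nkg7 of lymphoid cells and the class II gene H2-Eb1. No macrophage or myeloid marker was called before or after centring. Count ratios were 1.22 for Lyz2, 1.45 for C1qa, 1.41 for C1qb, 1.16 for Csf1r, 1.40 for Itgam and 0.906 for Adgre1. Of 8 adipocyte markers 7 were called higher before and after GC centring, with a sum of 436.2 TPM in replicate 2 and 104.8 TPM in replicate 1. All 7 lung and all 7 erythroid markers were called higher before and after GC centring. The part of any of these cells in the Psmb9, Psmb10 and Psme1 ratios was not tested. Of the 12 interferon response genes 0 were called higher and 1 lower, or 1 higher and 0 lower after GC centring, with sums of 51.4 TPM in replicate 2 and 46.6 TPM in replicate 1.

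The genes of MHC class I presentation, the route served by the immunoproteasome, were split. Of 11 genes, 1 was called higher in replicate 2 (8.21% of all tested genes) and 0 lower (3.57%), which is near the share of all genes. A log2 ratio above 0 was found for 7 of them. The called gene was H2-K1, a class I heavy chain, with 194.3 TPM in replicate 2 and 78.1 TPM in replicate 1. B2m, the class I light chain, had 304.3 TPM in replicate 2 and 139.9 TPM in replicate 1, a count ratio of 1.94 just short of the limit. After GC centring B2m was called higher and H2-K1 was not. Tap1 and Tap2, which form the peptide transporter, lie in the same stretch of chromosome 17 as Psmb9 and Psmb8. Tap1 had 6.2 TPM in replicate 2 and 3.8 TPM in replicate 1, a count ratio of 1.57 (1.43 to 1.74), and its exons overlap those of Psmb9 over 212 nucleotides on the other strand. Tap2 had 14.05 TPM in replicate 2 and 8.72 TPM in replicate 1, a count ratio of 1.42 (1.33 to 1.52). All 4 genes of the stretch had ratios above 1, the smallest that of Psmb8. The chaperones Calr, Canx and Pdia3 and the trimming peptidase Erap1 had count ratios below 1, of 0.770, 0.580, 0.668 and 0.602, whereas by TPM Pdia3 was higher in replicate 2 (51.5 TPM in replicate 2, 26.4 TPM in replicate 1).

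Partners that lie outside the symbol rule were measured too. All 13 matched genes exceeded 1 TPM in both libraries. Of these, 1, Psmg4, was called higher in replicate 2 (8.21% of all tested genes) and 0 lower (3.57%). Pomp, the maturation factor of the core, had 45.1 TPM in replicate 2 and 43.8 TPM in replicate 1. The assembly chaperones Psmg1, Psmg2 and Psmg3 had means of 13.4, 11.3 and 6.68 TPM. Psmg4, the fourth of them, had 27.1 TPM in replicate 2 and 11.3 TPM in replicate 1 from 566 counts in replicate 2 and 219 in replicate 1, a ratio of 2.16 that was not called after GC centring. Adrm1, a ubiquitin receptor of the base, had 40.2 TPM in replicate 2 and 19.8 TPM in replicate 1, a ratio of 1.73 (1.64 to 1.84). Sem1, the small lid subunit, had 17.6 TPM in replicate 2 and 15.6 TPM in replicate 1. Usp14 and Uchl5, deubiquitinases of the 19S particle, had means of 8.11 and 1.78 TPM. Ecpas, which holds core and 19S particle together, had 8.49 TPM in replicate 2 and 14.5 TPM in replicate 1, 1.78-fold lower by count. Adrm1 and Ecpas thus lay on opposite sides.

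Annotated transcripts showed a single dominant form for most of the set. Among 35 genes with at least 1 TPM in both libraries and more than 1 annotated transcript, the leading transcript was the same in both libraries for 33, and for all 35 when counted without length correction. It held over 90% of the gene's TPM in both libraries for 17 genes. A protein-coding transcript led 34 of the 35 by mean share, the exception being Psma3, whose division with Gm13835 is given above. Gm13835 lies whole inside the protein-coding Psma3-204, so the leader of Psma3 and its share of other forms depend on that division. The median share of forms that are not protein-coding was 4.14% in replicate 2 and 4.23% in replicate 1, and it exceeded 20% in both libraries for 5 genes, Psma3, Psmb4, Psmb7, Psmd1 and Psme1.

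Several genes shifted form between the libraries. Psmb4-201, protein-coding, held 61.7% of Psmb4 in replicate 2 and 42.6% in replicate 1, while the retained-intron form Psmb4-202 held 35.0% in replicate 2 and 54.7% in replicate 1. The leader of Psmb4 differed between the libraries. Psmd1-208, a processed transcript, held 48.4% in replicate 2 and 31.1% in replicate 1, and the protein-coding Psmd1-201 held 41.5% in replicate 2 and 48.3% in replicate 1. Psmc3 shifted between 2 protein-coding forms, with Psmc3-202 at 52.2% in replicate 2 and 88.3% in replicate 1 and Psmc3-203 at 42.6% in replicate 2 and 8.40% in replicate 1. Psme1-208 held 71.8% of Psme1 in replicate 2 and 56.6% in replicate 1. Psmd12-202, a second protein-coding form, held 0% in replicate 2 and 26.7% in replicate 1. Transcript shares are estimates from reads that transcripts share, with 1 value per library, and no test was made of them.

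**Figure D5:**
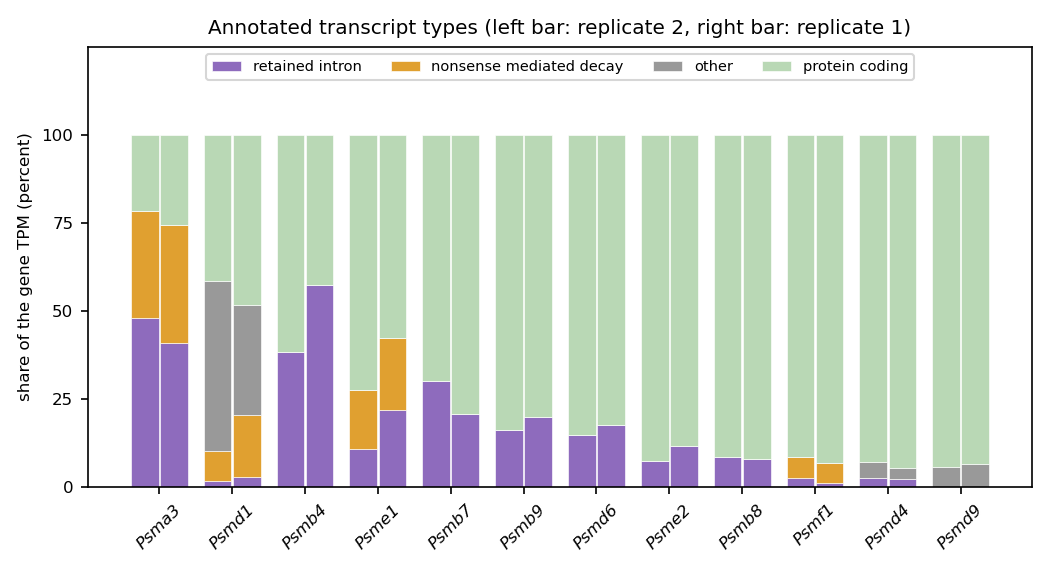
Share of each gene's TPM by annotated transcript type, in percent, for the 12 detected genes with the highest mean share of forms that are not protein-coding; the left bar of a pair is replicate 2 and the right bar replicate 1. Psma3 leads with 78.3% in replicate 2 and 74.3% in replicate 1, followed by Psmd1 with 58.5% in replicate 2 and 51.7% in replicate 1. The Psma3 shares leave out the TPM assigned to Gm13835.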

How the data were processed

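Both libraries were analysed from gene and transcript tables on mm10 (GRCm38), with transcripts of GENCODE M4, as the accompanying notes state. The sources used here do not name the quantification program. The deposited expected counts are estimated numbers of fragments, and the deposited TPM and FPKM values correct them for effective length, per the file headers. Each transcript's percent of its gene, a deposited column per the file headers, was computed again here from TPM. Other deposited columns gave lengths and posterior standard deviations. The mm9 lists were not analysed here.

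M21 supplied symbols and biotypes for 42462 of 43346 identifiers (98.0%). Expected counts were rounded, scaled with TMM (edgeR 4.0.16, R 4.3.3) and compared by an exact binomial test in scipy 1.17.1. Genes needed a total of 20 counts, a Benjamini-Hochberg adjusted p under 0.05 and a fold of 2 to be called. The quasi-likelihood test of edgeR has no residual degrees of freedom with 1 library against 1. Log2 ratios used CPM + 0.5. GC centring subtracted the median ratio in 20 bins of the GC content of the longest M21 transcript, used because no genome sequence was at hand. Copies were sought with minimap2 2.31-r1302. Alternatives covered scaling (DESeq2 1.42.0), filters, fold limits and pseudocounts. The procedure was tested on simulated counts that held counting error only, so that run does not cover spread between animals or samples. The text names every gene of the rule and genes of the immune, class I and partner lists. Gm13835, Nfe2l1, Nfe2l2, Foxn1 and Prm1 were named after their values were seen. The set and the lists were chosen with earlier results of these data known. The sex-linked and mitochondrial lists, the Gm13835 sum, the GC-centred pairs and GC centring with other fold limits were added after seeing the data. Intervals and floors cover counting error only. Nothing in the labels says whether the biosamples shared animals, so p-values compare the reads of these samples.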

Additional observations from a re-analysis of the deposited data

How the results depend on the processing

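Every immunoproteasome ratio stayed below 0 under every alternative run. Without length correction the log2 ratio was −3.39 for Psmb9 over Psmb6, −2.18 for Psmb8 over Psmb5 and −2.20 for the sum. The Psmb8 pair was −2.43 with annotated length and −2.42 with a pseudocount of 1 TPM. With 1 library left out, the ratio ranged from −4.69 to −4.00 for Psmb9, −2.28 to −1.45 for Psmb10, −2.54 to −2.46 for Psmb8 and −2.97 to −2.57 for the sum. GC centring turned the library difference of the Psmb8 pair to 0.21. TPM rescaled over nuclear protein-coding genes multiplies values by 1.97 in replicate 2 and 2.96 in replicate 1. Mean sums over both libraries were then 2528 for the core, 110.6 for the immunoproteasome genes, 1441 for the 19S genes of the set and 161.6 for PA28 α and β. Because the factor is larger in replicate 1, the core and 19S sums were then lower in replicate 2. Of the genes of the set with at least 1 TPM in both libraries, all but Psmb9 and Psmb10 were lower too. Among them were Psmb8, Psme1, Psma7 and Psmf1, with TPM ratios before rescaling of 1.21, 1.29, 1.45 and 1.46, replicate 2 over replicate 1. The immunoproteasome sums were then nearly equal in the libraries. With no fold limit 12 genes were called higher (32.9% of all tested genes) and 25 lower (34.9%). At a fold of 1.5 the numbers were 1 higher (15.1% of all) and 3 lower (12.2%). With GC centring they were 8 higher (27.7%) and 19 lower (29.5%) without a fold limit. At 1.5 with GC centring they were 1 higher (11.7%) and 1 lower (5.13%). With no filter on low counts 1 gene, Psma8, was called higher (7.14% of all). With total counts the median log2 ratio was −0.0255 for the set and 0.0947 for all genes; the cause was not tested. All other alternatives left the counts within 1.5 times and the sums within 1 SD. No paired analysis was possible because there is 1 group and no contrast between groups. With 2 libraries, small differences in level are not detectable beyond their spread, and Psma3, Psme2 and Psme2b are limited by shared reads.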
